A study of Mus musculus with 8 samples.

Results

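The cytosolic ribosomal proteins are the protein components of the ribosomes that translate nuclear mRNAs. They were followed here on mouse Affymetrix expression arrays of 2 striatal cell lines, SThdh111/111 and SThdh7/7. The members were all non-control probe sets annotated to exactly 1 gene whose symbol is that of a ribosomal protein of the 60S subunit (Rpl genes and the Rplp stalk genes) or the 40S subunit (Rps genes and Rpsa). Of 117 probe sets that matched these symbol patterns, 12 for S6 kinases or Rps19bp1 and 1 for the pseudogene Rps4l were left out. This left 104 probe sets of 48 genes, of 45037 non-control probe sets in all and of 18193 genes that have a probe set of their own. The reference annotation lists 88 protein-coding genes with such symbols. A further 110 probe sets were annotated to several genes with at least 1 ribosomal protein gene among them; they are counted separately.

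Total RNA of 4 samples of SThdh111/111 and 4 samples of SThdh7/7 was labelled with biotin and hybridised, 1 sample to an array. Both lines are embryonic mouse striatal cells, conditionally immortalised with a temperature-sensitive SV40 large T antigen, which both lines share. Each is homozygous for a knock-in allele of the Huntingtin gene, Htt, and the number in the name is the length of the polyglutamine stretch, 111 in the line that models Huntington's disease and 7 in its control. No treatment, culture temperature or passage is given in the labels. Each genotype is 1 line, so genotype and any other difference between the lines cannot be told apart. Since the labels do not state whether a line's 4 samples were separate cultures, the p-values cover the spread among samples, which may be technical. The study's title is about histone acetylation at genes that are down in models of Huntington's disease.

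A mammalian ribosome joins a small 40S subunit, which decodes the mRNA, with a large 60S subunit, which forms peptide bonds. Each subunit is built in the nucleolus from ribosomal RNA and 1 copy of most ribosomal proteins, with a stalk of acidic P proteins that recruits translation factors. The mRNAs of ribosomal proteins typically begin with a run of pyrimidines, the 5′ terminal oligopyrimidine (TOP) tract, through which mTOR and the La-related protein Larp1 control their translation. Free ribosomal proteins such as Rpl11 bind the p53 ubiquitin ligase Mdm2 when assembly is disturbed. Ribosomal protein mRNAs have many processed pseudogenes in the mouse genome, and their probe sets can read more than 1 sequence.

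The start-site sequences of the genes on which the comparison turns show how the family's start-site pattern is spread over them. RefSeq promoters (GRCm38.p6) were matched for 43 of the 48 genes. A run of at least 8 pyrimidines (C or T only, on the transcript's strand) within 20 bases before to 30 bases after an annotated start was present for 23 of these 43 genes (53.5%), for 16 of 69 mitochondrial ribosomal protein genes (23.2%) and for 5811 of all 27025 genes (21.5%). The letters CTTTCC, which overlap with such runs, were in the same window for 8 member genes (18.6%) and 764 of all genes (2.83%). The letters CCGGAAG hold the shorter GGAA core that ETS-family factors recognise. They were sought on either strand of the 300-base promoter (250 bases before to 50 after the start). They were present for 21 member genes (48.8%), 26 mitochondrial ribosomal protein genes (37.7%) and 2683 of all genes (9.93%). These matches describe the sequences and are not sites shown to be used. Each sequence below spans 30 bases before to 20 bases after a start, 5′ to 3′, with the pyrimidine run in capitals. The first 5 genes were higher in SThdh111/111 under both scalings used below, Rpl22 had probe sets that moved in opposite directions, Rpl22l1 is its paralogue, and Rps10 and Rps24 moved under 1 scaling.
Rps19 (start 1 of 3), chr7:24884562-24884611, plus strand: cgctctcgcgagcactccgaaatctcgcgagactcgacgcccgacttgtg
Rpl37, chr15:5116583-5116632, plus strand: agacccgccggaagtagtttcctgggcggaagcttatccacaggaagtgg
Rpl38, chr11:114668550-114668599, plus strand: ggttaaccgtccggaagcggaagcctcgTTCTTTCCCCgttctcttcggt
Rps18, chr17:33955646-33955695, minus strand: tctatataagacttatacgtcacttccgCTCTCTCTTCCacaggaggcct
Rpl7l1, chr17:46782637-46782686, minus strand: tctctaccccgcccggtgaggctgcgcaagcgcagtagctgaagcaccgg
Rpl22 (start 1 of 2), chr4:152325696-152325745, plus strand: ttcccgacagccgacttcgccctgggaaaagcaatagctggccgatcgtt
Rpl22l1, chr3:28805478-28805527, plus strand: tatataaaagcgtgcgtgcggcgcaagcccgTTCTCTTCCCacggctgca
Rps10, chr17:27635225-27635274, minus strand: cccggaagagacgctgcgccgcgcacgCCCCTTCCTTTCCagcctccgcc
Rps24 (start 1 of 2), chr14:24490648-24490697, plus strand: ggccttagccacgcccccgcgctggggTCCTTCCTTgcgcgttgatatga
Rpl38 and Rps18, which were higher in SThdh111/111, and Rps24, which was lower after quantile normalization, all carry the run. Rps19, Rpl37 and Rpl7l1 were higher and Rpl22 was divided, and no run of 8 was found in the windows of any of their annotated starts.

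The deposited values are intensities on a linear scale and were used as log2. Across all probe sets the arrays correlated at 0.922 to 0.924 within SThdh111/111, 0.906 to 0.927 within SThdh7/7 and 0.866 to 0.885 between the lines. Median intensities were 136.2 to 147.0 on the SThdh111/111 arrays, 173.9 and 174.0 on SThdh7/7 samples 1 and 2, and 137.7 and 139.7 on SThdh7/7 samples 3 and 4, so the medians of SThdh7/7 samples 1 and 2 were above those of the other 6 arrays. The top of the distribution also differed by line: the 99th percentile of log2 intensity was 13.52 to 13.58 on the SThdh111/111 arrays and 13.28 to 13.42 on the SThdh7/7 arrays, with no overlap. Beta-actin probe sets at the 3′ and 5′ ends of the mRNA differed by 0.15 to 0.24 (log2) in SThdh111/111 and by 0.09 to 0.30 in SThdh7/7, and those of Gapdh by -0.56 to -0.47 in SThdh111/111 and by -0.49 to -0.41 in SThdh7/7. Of striatal projection neuron markers 1 of 8 (Foxp1) was above the floor set by bacterial control probe sets (an intensity of 130) on all 8 arrays, as were 3 of 6 neural progenitor markers (Nes, Sox2 and Vim), 1 of 6 neuron markers (Map2) and 0 of 5 astrocyte markers. Mesenchymal markers were above it for 5 of 6 genes (Acta2, Col1a1, Col1a2, Col3a1 and Pdgfrb), with a summed log2 level of 16.50 to 16.72 in SThdh111/111 and 14.68 to 14.74 in SThdh7/7. Sox10 (oligodendrocyte lineage), Csf1r (microglia and blood) and Kdr (endothelial) were also above it. Sums were lower in SThdh111/111 for neuron markers (10.70 to 10.81 against 11.18 to 11.33). They were higher for striatal projection neuron (11.43 to 11.56 against 10.79 to 11.01) and astrocyte markers (9.62 to 9.99 against 8.94 to 9.23). For the remaining lists the lines overlapped. The lines thus carried progenitor and mesenchymal markers and few of the defining markers of mature striatal neurons. Whether these marker levels or the array medians have a part in the ribosomal protein results was not tested, except where values without SThdh7/7 samples 1 and 2 are given.

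Ribosomal protein probe sets were among the brightest on the arrays. Of the 104 members, 101 of 47 genes were tested, those that had 4 or more arrays at a log2 of 4 or higher, 48 for the 60S and 53 for the 40S subunit. The 3 others were dim on all arrays: Rps16 1455835_at, the only member of that gene, lay between 1.64 and 5.01, Rps18 1421838_at between 1.83 and 5.68, and Rpsa 1416196_at between 2.40 and 5.09. The median of the 101 mean levels was 14.22, against 7.33 over all 41409 probe sets tested. A mean log2 level of at least 14 was reached by 62 members, which were 24.6% of the 252 probe sets at that level, and one of at least 13 by 66 members, 10.6% of 623. These 66 are called bright here, a level chosen after the data were seen. A further 18 members lay between 8 and 13 and 17 lay under 8, of which 5 were below the bacterial floor on every array. The brightest member was Rpl41 1455578_x_at, for the smallest ribosomal protein, with a mean of 15.38, close to the brightest of all probe sets at 15.55. The dimmest was Rpl39l, a testis-enriched copy of Rpl39, with a mean of 4.37. Dim members mostly stood beside a bright probe set of the same gene, as for Rps18, Rps10, Rps3, Rps20 and Rpl35, so a level belongs to a probe set and does not order the genes.

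As deposited, the ribosomal protein probe sets were on balance slightly higher in SThdh111/111. Of the 101 tested, 40 of 22 genes were higher and 4 were lower, and 57 passed in neither direction (limma, Benjamini-Hochberg adjusted p under 0.05 over all 41409 probe sets). Over all probe sets tested 9.87% were called higher and 12.6% lower. Without SThdh111/111 sample 4 24 members were higher and 1 lower, and without sample 3 26 were higher and 3 lower. The share of all probe sets called without these samples is not given. The median difference of the members, SThdh111/111 minus SThdh7/7, was 0.20 on the log2 scale, against -0.12 over all probe sets. The 4 SThdh111/111 arrays lay entirely above the 4 SThdh7/7 arrays for 39 members and entirely below them for 2. Over all probe sets 25.1% did not overlap in either direction. The median level of the 66 bright members was 14.50, 14.53, 14.64 and 14.64 in SThdh111/111 samples 1 to 4, against 14.31, 14.44, 14.45 and 14.41 in SThdh7/7 samples 1 to 4. There was no overlap between the lines in this median, and SThdh7/7 sample 1 was the lowest.

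Bright probe sets as a whole moved the same way. Among the 66 bright members 35 (53%) were higher and 0 lower by limma, with a median difference of 0.21; by sign alone 60 differences were positive and 5 negative. Among the 557 other probe sets at that level 239 (42.9%) were higher and 107 (19.2%) lower, with a median of 0.15; over all 623, 44% were higher and 17.2% lower. Their median level was 13.76 to 13.82 on the SThdh111/111 arrays and 13.55 to 13.70 on the SThdh7/7 arrays. The middle of the bright members' differences was narrow: the quartiles were 0.13 and 0.26, against -0.09 and 0.35 for the other bright probe sets. The full range of the bright members was -0.09 to 0.55, and the SD over them was 0.13. Of the 35 dimmer members 5 were higher and 4 lower, beside 9.87% and 12.6% of all probe sets.

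**Figure D1:**
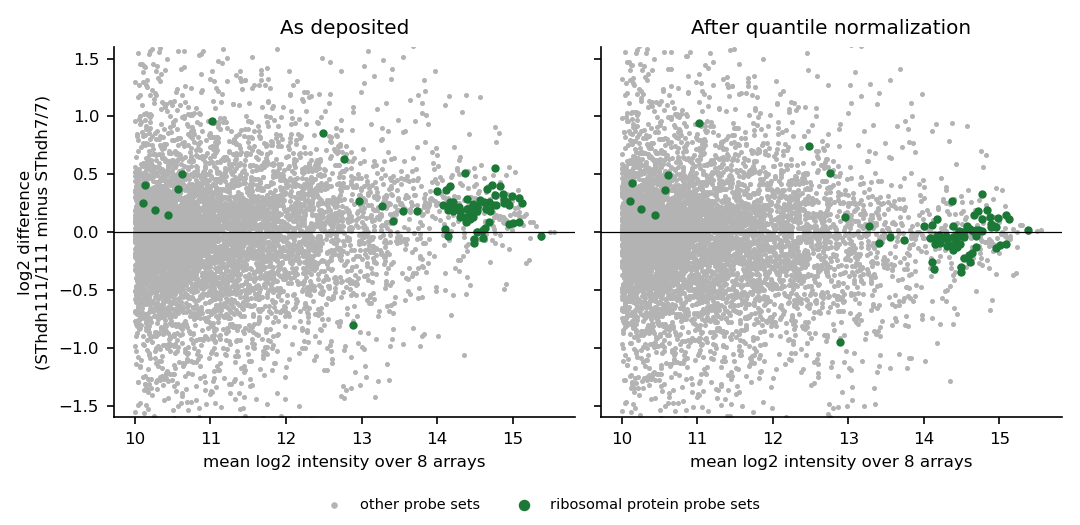
Each point is a probe set, with the mean log2 intensity over 8 arrays on the x axis and the log2 difference, SThdh111/111 minus SThdh7/7, on the y axis, as deposited on the left and after quantile normalization on the right; levels under 10 and differences beyond 1.6 are not drawn. Ribosomal protein probe sets (green) cluster above a level of 14, with a median difference among the bright ones of 0.21 as deposited and -0.03 after quantile normalization.

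Quantile normalization, which gives every array the same distribution of values, removed the common shift. After it 8 of the 101 members were higher and 11 lower, and 82 passed in neither direction, with a median of -0.03. Over all probe sets 10.1% were higher and 11.7% lower after this normalization, with a median of -0.03. Of the 66 bright members 4 were higher and 8 lower, against 127 (22.8%) and 191 (34.3%) of the 557 other bright probe sets, and their median was -0.03 against -0.04. Over all 623 bright probe sets 21% were higher and 31.9% lower. The spread among the bright members was as before: their differences had a lowest value of -0.34 and a highest of 0.33 with an SD of 0.13. The lines did not overlap for 10 members that were higher and 16 that were lower in SThdh111/111, where 24.7% of all probe sets did not overlap in either direction.

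Most calls changed with the scaling. Between the scalings 8 members were called higher in both and 3 lower in both, 32 were higher only as deposited, 8 were lower only after quantile normalization and 1 (Rps25) was lower only as deposited. No member was called in opposite directions. The share of all probe sets called under both scalings, or under 1 only, is not given, so these counts describe the members only. With each array centred on its median instead, the median over all probe sets was 0.04, and the members had a median of 0.35 with 12 higher and 2 lower, where 10.3% and 6.71% of all probe sets were called. At 1 probe set a gene this gave 8 higher and 0 lower, where 13.6% and 8.34% of all named genes were called. Without SThdh7/7 samples 1 and 2 as deposited, 28 members were higher and 1 lower with a median of 0.14, where 9.74% and 10.6% of all probe sets were called. Without an intensity trend in the fit 7 were higher and 2 lower, where 7.39% and 9.74% of all were called. By probe set type, 15 of 28 members with _a_at names were higher and 0 lower as deposited, and 20 of 40 with _x_at names were higher and 0 lower, with median levels of 14.41 and 14.50. Of 3 with _s_at names 1 was higher. With plain _at names, whose probes match 1 sequence, 4 of 30 were higher and 4 lower, at a median level of 8.42 with 5 bright. Type and brightness thus went together, and the difference between types was not tested. Over all probe sets of any type 9.87% were called higher and 12.6% lower as deposited. The shares within each type are not given, so the counts by type describe the members only. Of the 5 bright plain _at probe sets, Rpl27 differed by 0.24 and Rplp0 by 0.28 and were called. Rpsa (0.13), Rpl19 (0.08) and Rps15 (-0.06) were not.

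At 1 probe set a gene, the one with the highest mean, 18 of 47 genes were higher in SThdh111/111 as deposited and 1 was lower, with a median of 0.19. Over all 17389 named genes 13.1% were higher and 15.9% lower, with a median of -0.09. The subunits were alike: 10 of 26 genes of the 60S subunit were higher and 0 lower (median 0.16), and 8 of 21 genes of the 40S subunit were higher and 1 lower (median 0.23). After quantile normalization 6 genes were higher and 6 lower, with a median of -0.01, where 13.4% and 15.3% of all named genes were called. The 6 higher were Rpl37, Rpl7l1 and Rpl38 of the large subunit and Rps18, Rps19 and Rps14 of the small. The fits below give each difference with its SE and the limma adjusted p over all probe sets.

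Rps19, a small-subunit protein whose loss of 1 copy causes Diamond-Blackfan anaemia in humans, had the lowest adjusted p among the 47 genes. Its probe set measured 14.57, 14.51, 14.70 and 14.70 in SThdh111/111 samples 1 to 4, against 14.07, 14.20, 14.09 and 14.08 in SThdh7/7 samples 1 to 4. All 4 SThdh111/111 arrays were above all SThdh7/7 arrays, and the difference was 0.51 ± 0.06 (SE, adjusted p = 4.1e-05). After quantile normalization the values were 14.52, 14.44, 14.55 and 14.54 in SThdh111/111 and 14.30, 14.34, 14.15 and 14.16 in SThdh7/7. They still did not overlap, and the difference was 0.27 ± 0.05 (adjusted p = 0.0024).

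Rpl37, a zinc-binding protein of the large subunit, had the largest rise of the 47 genes. Levels were 12.94, 12.92, 13.26 and 13.19 in SThdh111/111, against 12.28, 12.32, 12.60 and 12.59 in SThdh7/7. The lines did not overlap, and the difference was 0.63 ± 0.10 (adjusted p = 2.8e-04) as deposited and 0.51 ± 0.08 (adjusted p = 3.7e-04) after quantile normalization. Rpl38, which in mice is needed for translation of a set of homeobox mRNAs, measured 14.96, 14.97, 15.10 and 15.09 in SThdh111/111, against 14.53, 14.64, 14.69 and 14.66 in SThdh7/7. Each SThdh111/111 array was again above each SThdh7/7 array, with a difference of 0.40 ± 0.06 (adjusted p = 3.2e-04) as deposited and 0.19 ± 0.04 (adjusted p = 0.0039) after quantile normalization. Both genes had a single probe set among the members, of the _x_at type, in which some probes match other sequences.

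Rps18, a protein of the head of the small subunit, had 5 member probe sets tested. The brightest, 1455572_x_at, measured 14.93, 14.98, 15.16 and 15.12 in SThdh111/111, against 14.31, 14.50, 14.45 and 14.72 in SThdh7/7. With no overlap, the lines differed by 0.55 ± 0.09 (adjusted p = 2.9e-04) as deposited and 0.33 ± 0.07 (adjusted p = 0.0037) after quantile normalization. Other bright probe sets of Rps18 differed by less: 1448739_x_at by 0.27 ± 0.08 (adjusted p = 0.025) and 1435712_a_at by 0.21 ± 0.07 (adjusted p = 0.041) as deposited, both with overlapping lines, and by 0.05 and -0.05 after quantile normalization. Its dim probe sets 1450390_x_at and 1421837_at gave -1.50 ± 0.89 and -1.51 ± 0.73 and passed no test. Averaged over its probe sets the gene's difference was -0.39, so its direction rests on the bright probe sets.

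Rps14, a small-subunit protein lost on 1 copy in the human 5q- syndrome, measured 14.77, 14.83, 15.10 and 14.999 in SThdh111/111, against 14.36, 14.45, 14.68 and 14.58 in SThdh7/7. The lines did not overlap as deposited (difference 0.40 ± 0.09, adjusted p = 0.0036), and did overlap after quantile normalization (0.19 ± 0.06, adjusted p = 0.047). The call was lost without an intensity trend (adjusted p = 0.070). A second bright probe set, 1436586_x_at, differed by 0.20 ± 0.09 (adjusted p = 0.14) as deposited and by 0.01 after quantile normalization.

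**Figure D2:**
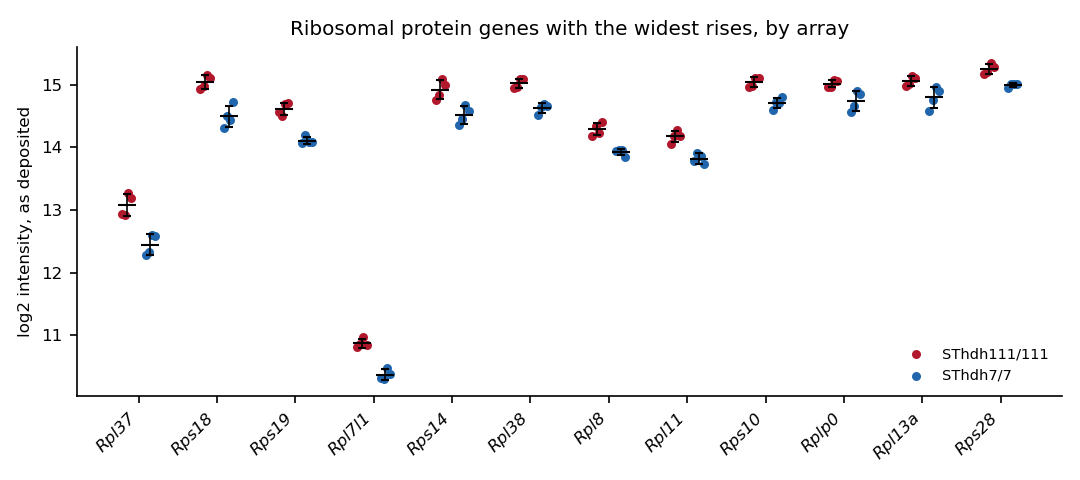
The log2 intensity as deposited is plotted for each array (points) of the 12 ribosomal protein genes with the largest rises among those whose lines did not overlap, with mean and SD (bars, n = 4), SThdh111/111 in red on the left of each pair and SThdh7/7 in blue on the right. All 4 red points lie above all 4 blue points for each gene, and the gaps are 0.63 for Rpl37 and 0.26 for Rps28.

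Rpl8, Rpl11, Rps10, Rplp0, Rpl13a and Rps28 rose as deposited and were not called after quantile normalization. Rpl8, a large-subunit protein near the peptidyl transferase centre, measured 14.19, 14.35, 14.23 and 14.41 in SThdh111/111, against 13.94, 13.97, 13.95 and 13.86 in SThdh7/7. The difference was 0.37 ± 0.06 (adjusted p = 7.0e-04), and 0.06 (adjusted p = 0.60) after quantile normalization. Rpl11, which binds Mdm2, measured 14.06, 14.19, 14.28 and 14.19 in SThdh111/111, against 13.79, 13.91, 13.86 and 13.73 in SThdh7/7. It differed by 0.36 ± 0.07 (adjusted p = 0.0011), and by 0.05 (adjusted p = 0.63) after quantile normalization. Neither gene's lines overlapped as deposited, and both genes' lines overlapped after quantile normalization. Rps10, on the small subunit near the mRNA entry, rose by 0.33 ± 0.06 as deposited (adjusted p = 0.0017), and differed by 0.13 (adjusted p = 0.073) after quantile normalization. Of its 5 other probe sets 3 were also called higher as deposited. The one with the widest rise, 1439374_x_at (0.86 ± 0.27, adjusted p = 0.034), measured 12.68, 12.78, 13.03 and 13.16 in SThdh111/111, against 11.37, 11.53, 12.40 and 12.93 in SThdh7/7. Its lines overlapped, and SThdh7/7 samples 1 and 2 were far below samples 3 and 4. Without those 2 samples it differed by 0.25 (adjusted p = 0.34).

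Rplp0, the base of the stalk, rose by 0.28 ± 0.08 (adjusted p = 0.020) and Rpl13a, a large-subunit protein also known as part of an interferon-gated translation inhibitor in human cells, by 0.26 ± 0.08 (adjusted p = 0.036). Rplp0 measured 14.97, 14.97, 15.08 and 15.06 in SThdh111/111, against 14.56, 14.66, 14.90 and 14.86 in SThdh7/7. All SThdh111/111 arrays were higher, but SThdh7/7 samples 3 and 4 came close to SThdh111/111. Without SThdh7/7 samples 1 and 2 Rplp0 differed by 0.14 (adjusted p = 0.14) and Rpl13a by 0.13 (adjusted p = 0.22). The stalk protein gene Rplp2 differed by 0.15 ± 0.07 (adjusted p = 0.16). Rps28 rose by 0.26 ± 0.06 (adjusted p = 0.0061), with all 3 of its probe sets called as deposited and none after quantile normalization. Rpsa, which is also known as a laminin receptor, differed by 0.13 ± 0.07 (adjusted p = 0.22). Rps6, the substrate of the S6 kinases, differed by 0.25 ± 0.12 (adjusted p = 0.18). Rpl41, the brightest, differed by -0.03 ± 0.07 (adjusted p = 0.81).

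Rpl22 stood apart from the other genes, since its probe sets moved in opposite directions under both scalings. Rpl22 binds RNA, is not needed for translation in most mouse cells, and represses its own paralogue Rpl22l1 in the mouse. Probe set 1416603_at measured 12.43, 12.45, 12.58 and 12.48 in SThdh111/111, against 12.81, 13.09, 13.66 and 13.58 in SThdh7/7. It was lower in SThdh111/111 on every array, with a difference of -0.80 ± 0.15 (adjusted p = 0.0012) as deposited and -0.95 ± 0.14 (adjusted p = 1.7e-04) after quantile normalization, and the call was lost when arrays were centred on their medians (-0.65, adjusted p = 0.065). Probe set 1448398_s_at measured 11.56, 11.36, 11.46 and 11.64 in SThdh111/111, against 10.41, 10.45, 10.70 and 10.61 in SThdh7/7. It was higher on every SThdh111/111 array, with a difference of 0.96 ± 0.09 (adjusted p = 1.7e-06) as deposited and 0.95 ± 0.08 (adjusted p = 1.6e-06) after quantile normalization. The brightest probe set, 1453118_s_at, measured 14.20, 14.16, 14.30 and 14.30 in SThdh111/111, against 13.89, 14.02, 14.21 and 14.09 in SThdh7/7. Its lines overlapped and its difference was 0.19 ± 0.07 (adjusted p = 0.084). Which transcripts each of the 3 probe sets reads was not analysed here. Rpl22l1 measured 13.31, 13.53, 13.54 and 13.47 in SThdh111/111, against 13.17, 13.23, 13.53 and 13.52 in SThdh7/7, a difference of 0.10 ± 0.09 (adjusted p = 0.53) with overlapping lines.

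**Figure D3:**
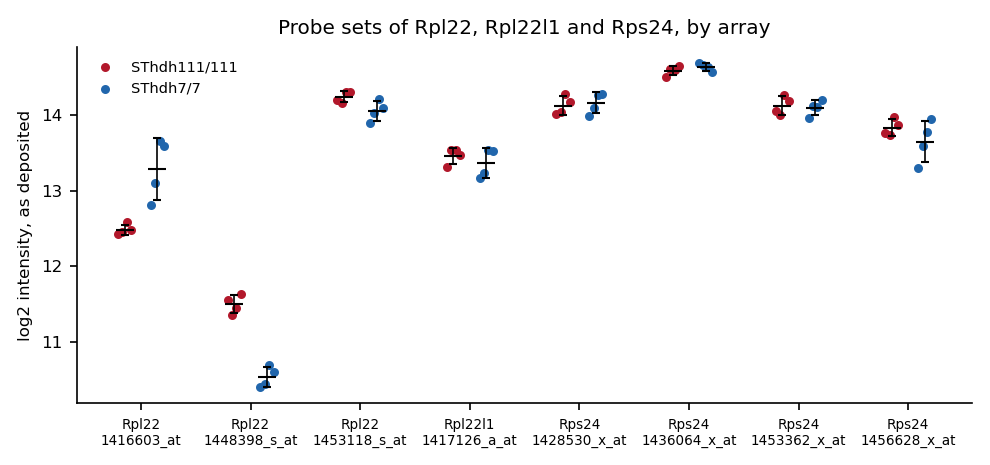
The log2 intensity as deposited is plotted by array for 3 probe sets of Rpl22, the paralogue Rpl22l1 and 4 probe sets of Rps24 (points), with mean and SD (bars, n = 4), SThdh111/111 in red on the left of each pair. The first Rpl22 probe set is lower in SThdh111/111 (difference -0.80) and the second higher (0.96), while the red and blue points of Rpl22l1 and Rps24 overlap.

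Paralogues did not follow a common direction. Rpl7l1, a nucleolar relative of Rpl7, measured 10.82, 10.86, 10.97 and 10.84 in SThdh111/111, against 10.32, 10.30, 10.48 and 10.39 in SThdh7/7. No SThdh111/111 array reached down to SThdh7/7, and the difference was 0.50 ± 0.07 (adjusted p = 2.0e-04) as deposited and 0.50 ± 0.07 (adjusted p = 1.9e-04) after quantile normalization. A second probe set of Rpl7l1, 1426386_at, was also higher under both scalings (0.37 ± 0.10, adjusted p = 0.019 as deposited and 0.017 after quantile normalization). The third, 1439780_at, was dim and differed by -0.21 ± 0.22 (adjusted p = 0.57), and averaged over the 3 the gene was not called (0.22, adjusted p = 0.094). Its parent Rpl7 rose by 0.20 ± 0.06 (adjusted p = 0.035) as deposited, all 3 of its probe sets being called, and differed by -0.03 (adjusted p = 0.65) after quantile normalization. Rps27l, a p53 target, rose by 0.21 ± 0.07 (adjusted p = 0.032) and differed by -0.01 (adjusted p = 0.90) after quantile normalization. Without SThdh7/7 samples 1 and 2 neither Rpl7 (adjusted p = 0.16) nor Rps27l (adjusted p = 0.19) was called. Rps27 measured 10.36, 10.39, 10.45 and 10.23 in SThdh111/111, against 9.997, 10.80, 9.88 and 9.99 in SThdh7/7. All SThdh7/7 arrays except sample 2 lay below SThdh111/111, and the gene differed by 0.19 ± 0.16 (adjusted p = 0.49) with that sample and by 0.40 (adjusted p = 0.0055) without it. Rpl39 (-0.18 ± 0.17) and its copy Rpl39l (-0.72 ± 0.82), and Rpl3l (-0.29 ± 0.75), the muscle copy of Rpl3, passed no test, and both copies were dim. Rps4x, an X-linked small-subunit protein, differed by 0.09 ± 0.06 (adjusted p = 0.39) as deposited and was lower after quantile normalization (-0.13 ± 0.04, adjusted p = 0.040).

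Few members were lower in SThdh111/111. As deposited these were the Rpl22 probe set above, Rps25 and dim probe sets of Rpl35 and Rps3. Rps25, which some viral and cellular internal ribosome entry sites need, measured 9.26, 9.19, 9.32 and 9.15 in SThdh111/111, against 9.63, 9.96, 9.61 and 9.32 in SThdh7/7. The lines touched, since SThdh7/7 sample 4 equalled the highest SThdh111/111 array to 2 decimals. The difference was -0.40 ± 0.13 (adjusted p = 0.041), and -0.23 (adjusted p = 0.25) without SThdh7/7 samples 1 and 2. Rpl35 1454833_at was below the bacterial floor on all SThdh111/111 arrays and was at least 1.08-fold lower there (the mean of SThdh7/7 against the floor; limma adjusted p = 0.029). Its call was lost without SThdh7/7 samples 1 and 2 (adjusted p = 0.13), and 4 of the 5 bright probe sets of Rpl35 were called higher. Rps3 1447563_at was at least 1.33-fold lower with overlapping lines (adjusted p = 0.031, and 0.20 without SThdh7/7 samples 1 and 2), and its bright probe set 1435151_a_at differed by 0.13 ± 0.07 (adjusted p = 0.28).

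After quantile normalization a second small set was lower, chosen here after its values were seen. Rpl10a, a large-subunit protein at the L1 stalk, measured 14.36, 14.37, 14.54 and 14.52 in SThdh111/111, against 14.40, 14.56, 14.65 and 14.55 in SThdh7/7 as deposited, where the lines overlapped and the difference was -0.09 ± 0.07 (adjusted p = 0.42). Normalized, it measured 14.27, 14.24, 14.39 and 14.35 in SThdh111/111, against 14.60, 14.67, 14.71 and 14.64 in SThdh7/7. The lines then did not overlap, with a difference of -0.34 ± 0.05 (adjusted p = 1.7e-04). Rpl6, also of the large subunit, differed by 0.00 ± 0.07 (adjusted p = 1.0) as deposited and by -0.22 ± 0.05 (adjusted p = 0.0050) normalized. Of the 4 bright probe sets of Rps24, a small-subunit protein mutated in some Diamond-Blackfan anaemia, 3 were lower when normalized, with differences of -0.26, -0.32 and -0.26 (adjusted p = 0.0043, 6.1e-04 and 0.0029), and 0 of 4 were called as deposited. Rps26 (-0.15 ± 0.04, adjusted p = 0.018) and Rps15 (-0.30 ± 0.10, adjusted p = 0.048) were the others, beside Rps4x. As deposited the lines overlapped for each of these probe sets.

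**Figure D4:**
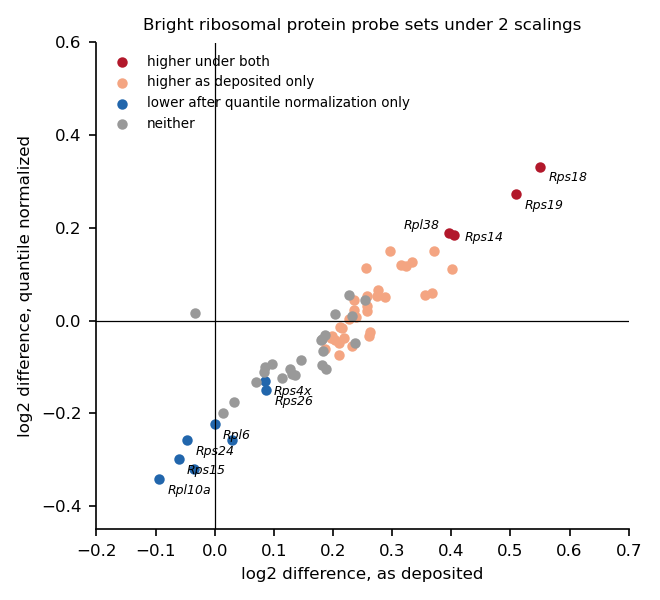
Each point is 1 of the 66 bright ribosomal protein probe sets, with the log2 difference (SThdh111/111 minus SThdh7/7) as deposited on the x axis and after quantile normalization on the y axis. The points form a band below the diagonal, with medians of 0.21 and -0.03; Rps18, Rps19, Rpl38 and Rps14 (dark red) are higher under both and Rpl10a, Rpl6, Rps24, Rps15, Rps26 and Rps4x (blue) are lower after quantile normalization only.

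When arrays were instead centred on the bright ribosomal probe sets themselves, a setting added after the data were seen that sets their common level equal, 11 members were higher and 9 lower, where 6.49% and 18.2% of all probe sets were called. The near-even balance of the members follows from the centring. Rps18 (0.37), Rps19 (0.33), Rpl38 (0.22) and Rps14 (0.23) were above the rest of the family in SThdh111/111, as were Rpl37 (0.45) and Rpl7l1 (0.32), and Rpl10a (-0.27), Rpl6 (-0.18), Rpl41 (-0.21) and the Rps24 probe sets 1436064_x_at and 1428530_x_at (-0.22 and -0.21) were below it, all with a limma adjusted p under 0.05. Rpl37, Rpl38 and Rps19 were called higher under every scaling, filter and left-out sample that could be run for them.

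Probe sets annotated to several genes with a ribosomal protein gene among them were counted apart. Of 108 tested, 46 were higher and 1 lower as deposited, with a median of 0.21, and 26 were higher and 10 lower after quantile normalization, with a median of 0.02. Over all probe sets 9.87% and 12.6% were called as deposited and 10.1% and 11.7% after quantile normalization. The difference between these probe sets and the members was not tested. Signal for 18S ribosomal RNA was taken from the array's control probe sets. How far it follows the amount of that RNA in the cells was not tested. The 3′ one measured 9.09, 8.97, 9.21 and 9.52 in SThdh111/111, against 9.51, 9.54, 9.21 and 9.15 in SThdh7/7, and the 5′ one measured 9.13, 9.96, 10.02 and 9.87 in SThdh111/111, against 8.90, 9.49, 8.93 and 9.29 in SThdh7/7. The middle one measured 7.45, 7.57, 8.45 and 8.25 in SThdh111/111, against 7.80, 7.39, 7.51 and 7.33 in SThdh7/7. The lines overlapped in each of these probe sets.

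Among the genes whose products assemble ribosomes, more were lower than higher in SThdh111/111 as deposited. Of 45 ribosome assembly genes 4 were higher and 17 lower, with a median of -0.23 (13.1% and 15.9% of all named genes were called higher and lower, with a median of -0.09), and the same counts held after quantile normalization with a median of -0.20. With arrays centred on their medians 3 were higher and 3 lower, where 13.6% and 8.34% of all named genes were called. Without SThdh7/7 samples 1 and 2 there were 3 higher and 16 lower, where 12.9% and 13.7% of all named genes were called. Nhp2, a core protein of H/ACA ribonucleoproteins that guide pseudouridylation, measured 10.61, 10.69, 10.72 and 10.84 in SThdh111/111, against 11.42, 11.67, 11.42 and 11.44 in SThdh7/7. Each SThdh111/111 array was lower, with a difference of -0.78 ± 0.08 (adjusted p = 6.2e-06). Its partners Gar1 (-0.37) and Dkc1 (-0.35) were lower too, whereas the fourth H/ACA protein, Nop10, was higher (0.62 ± 0.08, adjusted p = 6.4e-05). Fbl (-0.54 ± 0.08), the methyltransferase of C/D ribonucleoproteins, and its partners Nop56 (-0.69 ± 0.09) and Nop58 (-0.39) were lower, as was Pno1 (-0.64 ± 0.08), a 40S assembly factor. Brix1 (0.46 ± 0.07, adjusted p = 1.4e-04) and Rrp1 (0.25 ± 0.07, adjusted p = 0.024) were higher, like Nop10, and stayed so after quantile normalization. Of the 4 that were higher, Rrbp1 (0.81 ± 0.09) is known as a ribosome-binding protein of the endoplasmic reticulum and not as an assembly factor.

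**Figure D5:**
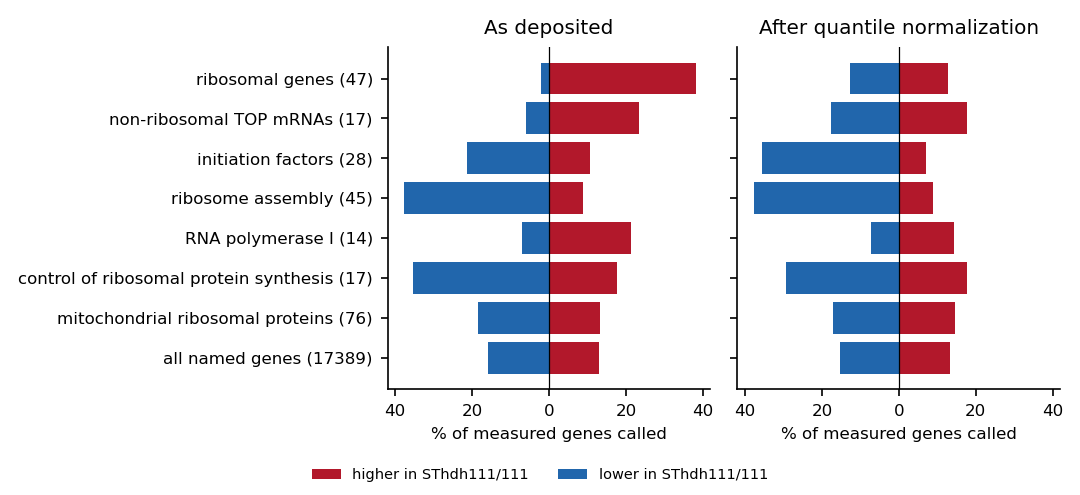
Bars give the percentage of measured genes (their number in parentheses) called higher (red, to the right) and lower (blue, to the left) in SThdh111/111 for each list, as deposited and after quantile normalization. Ribosomal protein genes are 38.3% higher and 2.13% lower as deposited but 12.8% and 12.8% after quantile normalization, while ribosome assembly genes are 8.89% higher and 37.8% lower in both panels.

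Other mRNAs that carry a TOP tract were mixed. Of 17 measured, 4 were higher and 1 lower as deposited (median 0.10), and 3 higher and 3 lower after quantile normalization (median -0.03). Among all named genes 13.1% were higher and 15.9% lower as deposited (median -0.09), and 13.4% and 15.3% after quantile normalization (median -0.02). Eif3e, a subunit of initiation factor 3, measured 14.65, 14.72, 14.84 and 14.78 in SThdh111/111, against 13.58, 13.63, 13.53 and 13.55 in SThdh7/7. The lines were far apart relative to their spread, with a difference of 1.17 ± 0.06 (adjusted p = 5.4e-09), wider than that of any ribosomal protein probe set that was called higher. Eif3h rose by 0.55 ± 0.07 (adjusted p = 5.2e-05), and the histone chaperone Nap1l1 was lower (-0.83 ± 0.06, adjusted p = 1.2e-07). Fau, which encodes the 40S protein eS30 as a fusion and falls outside the symbol rule, was higher as deposited (0.31 ± 0.06, adjusted p = 0.0022) and not after quantile normalization (0.06, adjusted p = 0.48).

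Of 28 other initiation factors 3 were higher and 6 lower as deposited, and 2 higher and 10 lower after quantile normalization. With arrays centred on their medians 3 were higher and 1 lower. Over all named genes, here and for the lists that follow, 13.1% were higher and 15.9% lower as deposited, 13.4% and 15.3% after quantile normalization, and 13.6% and 8.34% after centring. Eif1a, an initiation factor that helps the small subunit scan, was higher (1.39 ± 0.10, adjusted p = 1.1e-07), and Eif2b2, a subunit of the exchange factor of eIF2, was lower (-0.81 ± 0.08, adjusted p = 2.7e-06). The related gene Eif1ax went the other way from Eif1a and was lower (-0.29 ± 0.07, adjusted p = 0.0061). Of 14 genes for RNA polymerase I and its factors, which transcribe ribosomal RNA, 3 were higher and 1 lower as deposited, and 1 higher and 2 lower without SThdh7/7 samples 1 and 2. In that last fit 12.9% of all named genes were higher and 13.7% lower. Polr1e was lower (-0.74 ± 0.14, adjusted p = 0.0015), and Polr1c was higher (0.46 ± 0.12, adjusted p = 0.013) but not without SThdh7/7 samples 1 and 2 (adjusted p = 0.15). Among 17 genes that control ribosomal protein synthesis 3 were higher and 6 lower as deposited, 3 and 5 after quantile normalization, and 5 higher and 2 lower with arrays centred on their medians, where the balance turned. Eif2ak2, the interferon-induced kinase that blocks initiation, was higher (2.15 ± 0.11, adjusted p = 6.9e-09). Mycn, of the Myc family that drives ribosome gene transcription, was lower (-1.44 ± 0.07, adjusted p = 3.7e-09), as were Myc (-0.86 ± 0.20, adjusted p = 0.0059) and Mdm2 (-0.90 ± 0.07, adjusted p = 2.1e-07). Larp1, the TOP mRNA regulator, was lower too (-0.32, adjusted p = 0.013), as were Eif4ebp1 (-0.48, adjusted p = 3.9e-05) and Rps6kb2 (-0.74, adjusted p = 0.028). Larp4 (0.37, adjusted p = 0.016) and Larp4b (0.31, adjusted p = 0.0054) were higher, like Eif2ak2. Of 76 mitochondrial ribosomal protein genes, which serve the separate ribosomes of mitochondria, 10 were higher and 14 lower as deposited (median -0.04) and 11 higher and 13 lower after quantile normalization, shares close to those of all named genes, and 15 higher and 6 lower with arrays centred on their medians. Mrps31 (0.55 ± 0.08) and Mrpl27 (0.50 ± 0.09) were higher, and Mrpl45 (-0.74 ± 0.08) and Mrpl38 (-0.74 ± 0.09) were lower.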

How the data were processed

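Per the labels' protocols, RNA was isolated with Tri-reagent, purified on RNeasy columns, biotin-labelled and run on Affymetrix mouse arrays. The deposited table holds linear intensities, 1 a probe set and array. The submitters' processing notes name GCRMA, yet the deposited intensity values have a mean of 500 on all 8 arrays once 2% is trimmed from each end, as MAS5 or GCOS signals do; which tool made them stays unknown. Dim probe sets are noisy on such a scale. The number of arrays limits the precision.

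Values were taken to log2. Probe sets with a log2 of at least 4 on at least 4 of 8 arrays were kept (41409 of 45037; 64 controls left out). Names came from the platform annotation, updated to GRCm38.p6: 34945 probe sets had 1 gene, 932 several and 9160 none. Lines were compared in limma 3.58.1 (R 4.3.3) by lmFit and eBayes, using an intensity trend (two-sided, Benjamini-Hochberg over all kept probe sets, calls at an adjusted p under 0.05), as deposited and after quantile normalization. The floor was taken from 27 bacterial control probe sets, their 95th percentile on the array where it was highest (130, log2 7.02). That array was SThdh7/7 sample 2, and on the SThdh111/111 arrays the percentile was 72 to 77.5. Below the floor in a line, differences are bounds. Figures were drawn with matplotlib 3.10.9.

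The members and gene lists were chosen with earlier results of these data known. Genes were named at their brightest probe set: up to 12 a direction with the widest differences among called genes with lines not overlapping, those called under both scalings, paralogues with their parents, the stalk and other genes with a role of their own, genes whose probe sets were called in opposite directions, the brightest and the dimmest, and called list genes (up to 2 a direction by adjusted p). Gar1, Dkc1, Fbl, Nop56, Nop58, Myc, Larp1, Fau, Rpl10a, Rpl6, Rps24, Rps26, Rps15 and the single probe sets of Rps3 and Rps10 were added after their values were seen. Brix1, Rrp1, Eif1ax, Larp4, Eif4ebp1 and Rps6kb2 were added in the same way. The labels do not say that sample numbers pair the lines, and no pairing was seen: correlations of same-numbered deviations were -0.0144 to 0.009. Most probe sets are dim and noisy, so such correlations cannot exclude a shared culture or batch. Simulated data of 41409 probe sets had 100 bright probe sets changed by 0.3 log2 and 100 others changed by 1. The fit recovered 18% of the former and 29% of the latter, with 1 false call. All other probe sets were left unchanged, so the adjustment was stricter than here and the recovery does not carry over to these data. Alternatives were other scalings, filters and fits, probe set types, a replicate block and left-out samples.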

Additional observations from a re-analysis of the deposited data

Results flagged for a closer look

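In 128 groups of 4 arrays that were examined, 7 had 1 array far from the other 3, its gap taking up most of the group's range; chance alone gives about 1 in 20. Among ribosomal proteins, Rps27 1460699_at measured 10.80 in SThdh7/7 sample 2 and 9.88 to 9.997 in the others of that line; without that array the gene was called higher. Rps28 1451101_a_at measured 14.95 in SThdh7/7 sample 1, against 15.01 to 15.02 in the others, and Rpsa 1448245_at measured 14.21 in the same sample, against 14.32 to 14.33. Among the other genes, Eif2b2 measured 11.14 in SThdh111/111 sample 4 (10.84 to 10.88 in the others of that line) and Pno1 10.75 in SThdh111/111 sample 2 (10.46 to 10.50). Nhp2 measured 11.67 in SThdh7/7 sample 2 (11.42 to 11.44) and Larp4b 11.38 in SThdh7/7 sample 4 (11.18 to 11.20).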

How the results depend on the processing

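The direction of the family depended on scaling. It also differed by probe set type, but type and brightness went together and were not tested apart. Quantile normalization gave 8 probe sets higher and 11 lower (median -0.033), and 6 genes higher and 6 lower (median -0.0145). Leaving out _x_at, _s_at and _a_at probe sets gave 4 probe sets higher with a median of -0.14, 3 genes higher and 3 lower with a median of -0.12, and 4 probe sets called the same way under both scalings; few bright probe sets remain in it. Centring on array medians gave 12 higher and 2 lower (median 0.35), and 8 genes higher and 0 lower (median 0.34). Centring on the ribosomal probe sets gave 11 and 9 (median 0.019), and 9 genes and 5 (median 0.011). Without an intensity trend 7 were higher and 2 lower, 6 genes higher and 0 lower, and 4 were called the same way under both scalings. Without SThdh7/7 samples 1 and 2, or with a term for them, 1 probe set and 0 genes were lower and the gene median was 0.10. Array weights gave 0 genes lower, and a filter at a log2 of 8 gave 2 probe sets lower. The sample number as a replicate block gave 48 higher and 4 lower. For the probe set types, array weights, the filter and the block, the share of all probe sets called in the same fit is not given. Those counts can therefore also move with the number of calls in general.

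With 1 sample left out, 24 to 45 probe sets were higher and 1 to 4 lower with medians of 0.16 to 0.22, 12 to 22 genes were higher and 0 to 1 lower with medians of 0.15 to 0.22, and 7 to 12 probe sets were called the same way under both scalings. The lowest counts higher were without SThdh111/111 sample 4 (24) and sample 3 (26). For the fits with 1 sample left out, too, the share of all probe sets called is not given.

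Some genes and probe sets followed through all settings were called under 1 scaling and changed sign after quantile normalization. These were Rps27l (-0.0145), Rpl7 (-0.034), Rps4x (-0.13), Rps26 (-0.15) and Rps24 1453362_x_at (-0.26). Others called under neither scaling changed sign too, such as Rplp2 (0.15 to -0.09) and Rpsa (0.13 to -0.115). Of the bright members 60 had a positive difference as deposited and 28 after quantile normalization. Plain _at probe sets alone gave opposite signs for Rps18 (-1.51), Rps10 (-1.34), Rpl22 (-0.80) and Rpl35 (-1.76), since another probe set was then used, and the mean over probe sets did for Rps18 (-0.39). Beyond the settings given in the report, the causes were not tested. The simulated recovery of bright differences of 0.3 does not set a limit for these data. Bright probe sets with smaller differences were called, such as Rpl7 (0.20, limma adjusted p = 0.035) as deposited. How small a difference 4 arrays a line recover here was not tested.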
